A study of Mus musculus with 105 samples.

Results

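Of 53379 genes in the count table, 9 are described here: Foxr2, Xlr3c, Brs3, Gm20618, 4930550L24Rik, Magea8, Gm20744, Gm14139 and Gm13230. They were picked by symbol because earlier reading of these data found their RNA in tumour lines that had not been edited and little or none in healthy libraries or cultured melanocytes. Levels between tumour and healthy libraries and between lines are therefore given as a description. The tests are of Setdb1-edited (KO) against control cells of the same line unless named otherwise. Levels in unedited libraries, control cells among them, entered the choice, so these tests are not free of it either. The study measured polyA RNA from mouse tumour lines and healthy tissue, and the 4 edited lines were B16 and B16OVA (melanoma), MCA101OVA (fibrosarcoma) and MC38 (colon adenocarcinoma). Each had 3 libraries of Setdb1 KO cells, 3 of cells labelled Ctrl and 3 of unedited WT cells, except B16OVA with 6 of each. All tumour lines are of strain C57BL/6 and were grown with puromycin, KO, Ctrl and WT cells alike. Run B176 added 1 WT library each of MC38-OVA, MC38-GFP, MC38, MCA101-OVA, MCA101, B16-OVA and B16. The healthy side had 5 libraries of melanocytes cultured from newborn C57BL6/J mice and 4 libraries of each of 12 tissues from WT female mice. Levels in all libraries are counts per 1000000 of the library's gene total (CPM). Whether KO lines are single clones, and whether libraries of a group came from separate cultures or animals, is not given in the sources used here, so a p-value here reflects library-to-library spread, which may be technical.

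The product of Setdb1 methylates lysine 9 of histone H3, a mark that silences many transposable elements and some germline genes. Genes whose RNA is normally held to the germ line or a single organ and appears in tumours are called cancer-testis or tumour-restricted genes, and the Mage genes on the X chromosome, whose products bind ubiquitin ligases, are the textbook family. Magea8 belongs to it, and RefSeq lists mage-k1 as a synonym of 4930550L24Rik. Xlr3c belongs to the Xlr genes, a multicopy family of the mouse X chromosome related to the synaptonemal complex protein Sycp3. Foxr2 encodes a forkhead transcription factor, known in human tumours as an oncogene. Brs3 encodes an orphan G protein-coupled receptor of the bombesin receptor family, known for its role in the hypothalamus in energy balance. Gm14139 is annotated as protein-coding, Gm20618 and Gm20744 as long intergenic non-coding RNAs, and Gm13230 as a transcribed unprocessed pseudogene.

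On the X chromosome lay 5 of the 9 genes, a share of 55.6%, while 4.91% of the 53274 annotated genes and 3.25% of the 13604 genes with a mean of 1 CPM or more in an unedited tumour group lay there. The choice of genes was not made by position. In GENCODE vM21 (GRCm38, the mm10 build that the submitters' processing notes name), Brs3 is at chrX:57043074-57048758 on the plus strand and 4930550L24Rik at chrX:58909360-58920304 on the plus strand, 1.86 megabases apart. Xlr3c is at chrX:73254540-73265390 on the minus strand. Foxr2, at chrX:153118786-153132861 on the plus strand, and Magea8, at chrX:154985775-154995850 on the minus strand, are 1.85 megabases apart. The other 4 are single genes of 4 autosomes: Gm14139 at chr2:150181755-150193279 (plus), Gm13230 at chr4:145446740-145450888 (plus), Gm20618 at chr6:6603219-6691521 (minus) and Gm20744 at chr7:82070387-82081758 (plus). Exons of Gm13230 overlap those of Platr16 on the same strand, so reads could be split between them and its counts are uncertain.

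Promoters from RefSeq (GRCm38.p6, 250 bases before to 50 after the start) were found for 8 of the 9 genes, without Gm13230. The 5 printed here belong to genes that were high in the same lines: Foxr2, Brs3 and Gm20618 with high levels in B16 and B16OVA cells, and 4930550L24Rik and Magea8 with high levels in MCA101OVA cells. Capitals mark CG dinucleotides, the sites of DNA methylation in mammals. For Gm20618 and 4930550L24Rik the RefSeq window lies inside the GENCODE gene span given above and not at its start. The windows are chrX:153118538-153118837 (plus) for Foxr2, chrX:57042824-57043123 (plus) for Brs3, chr6:6682529-6682828 (minus) for Gm20618, chrX:58911211-58911510 (plus) for 4930550L24Rik and chrX:154995801-154996100 (minus) for Magea8.
Foxr2: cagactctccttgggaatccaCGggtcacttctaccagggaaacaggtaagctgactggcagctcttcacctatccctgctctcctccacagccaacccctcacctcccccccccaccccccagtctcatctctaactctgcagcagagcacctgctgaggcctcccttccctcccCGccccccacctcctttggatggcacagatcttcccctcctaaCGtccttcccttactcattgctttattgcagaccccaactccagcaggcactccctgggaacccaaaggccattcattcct
Brs3: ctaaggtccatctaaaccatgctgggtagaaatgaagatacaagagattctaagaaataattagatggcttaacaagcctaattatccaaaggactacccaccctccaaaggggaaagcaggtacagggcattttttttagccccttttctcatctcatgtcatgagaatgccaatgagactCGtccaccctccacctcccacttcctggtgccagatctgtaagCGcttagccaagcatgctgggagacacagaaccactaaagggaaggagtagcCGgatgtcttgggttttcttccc
Gm20618: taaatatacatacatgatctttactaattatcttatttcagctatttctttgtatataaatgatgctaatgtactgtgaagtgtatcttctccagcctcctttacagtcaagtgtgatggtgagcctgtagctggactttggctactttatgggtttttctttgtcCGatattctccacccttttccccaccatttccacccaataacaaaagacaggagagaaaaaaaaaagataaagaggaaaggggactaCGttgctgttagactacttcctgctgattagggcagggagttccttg
4930550L24Rik: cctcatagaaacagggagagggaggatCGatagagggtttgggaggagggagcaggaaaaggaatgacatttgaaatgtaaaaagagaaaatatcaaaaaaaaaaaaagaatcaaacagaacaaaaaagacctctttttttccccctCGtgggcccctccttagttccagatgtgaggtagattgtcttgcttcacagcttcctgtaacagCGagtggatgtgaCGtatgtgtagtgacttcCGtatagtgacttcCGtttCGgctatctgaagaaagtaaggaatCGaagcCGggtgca
Magea8: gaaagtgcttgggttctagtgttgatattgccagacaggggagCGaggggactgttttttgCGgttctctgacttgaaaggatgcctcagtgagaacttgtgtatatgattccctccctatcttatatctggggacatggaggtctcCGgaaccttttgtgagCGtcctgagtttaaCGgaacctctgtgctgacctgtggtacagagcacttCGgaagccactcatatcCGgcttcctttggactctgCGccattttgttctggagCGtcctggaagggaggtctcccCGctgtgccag

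The first 3 windows held 3, 3 and 2 CG dinucleotides (Foxr2, Brs3 and Gm20618), against 9 for 4930550L24Rik and 10 for Magea8. Xlr3c, also high in B16 and B16OVA cells, had 7, and Gm20744, found in MCA101OVA cells and the libraries labelled MC38, had 3. The counts thus overlapped between genes of the 2 tumours. Gm14139 had 5. The median of the 8 was 4 and that of all 32851 RefSeq promoters was 7. Short motifs were searched on both strands, by their letters alone. TATAAA, the TATA box core, was in 1 of the 8 windows (Gm20618) and in 13.6% of all promoters, and CACGTG, an E-box, was in 0 of 8 and 7.15%. GGCGGGAA, an E2F-type site, was in 0 of 8 and 2.19%. CGGAAG, an Ets-type core chosen with the sequences in view, was in 3 of 8 (2 copies in 4930550L24Rik, 1 each in Magea8 and Gm14139) and in 16.9% of all promoters.

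In units of 1000000 counted reads, depth was 17.2 to 50.4 in the 45 libraries of the 4 edited lines, 36.2 to 58.2 in the single B176 libraries, 19.9 to 30.6 in the melanocytes and 53.6 to 254 in the tissues. Setdb1 RNA, the check of the edit, was at 11.7 to 20.6 CPM in B16 KO libraries and 59.5 to 65.1 CPM in B16 Ctrl libraries. MCA101OVA ranges were apart too (20.4 to 36.7 CPM in KO, 45.7 to 95.7 CPM in Ctrl). They overlapped for B16OVA (15.6 to 49.9 CPM in KO, 21.1 to 99.4 CPM in Ctrl) and for the libraries labelled MC38 (60.05 to 85.3 CPM in KO, 54.9 to 125 CPM in Ctrl). All 7 melanocyte lineage markers reached 1 CPM in B16 and B16OVA libraries and in melanocytes, but 6 of them also did in MCA101OVA and MCA101 libraries. Summed over the 7 they were at 12596 to 31673 CPM in B16 and B16OVA and 12719 to 66415 CPM in melanocytes. In MCA101OVA and MCA101 libraries the sum was 7.85 to 26.1 CPM. All 20 tissue markers were highest in their own tissue. Of 4 fibroblast markers, Pdgfrb alone reached 1 CPM in the MCA101OVA and MCA101 libraries (fibrosarcoma), with Thy1 at 0. Melanocyte libraries also held fibroblast marker RNA, 154 to 14558 CPM summed over 4 genes, and its part in the melanocyte values was not tested.

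The 9 libraries labelled MC38 of run D176 went against the single MC38 libraries of run B176. Over 15547 genes, the log2(CPM + 1) profiles of the 9 had a median Pearson r of 0.974 with the single library labelled MCA101 and of 0.887 with the one labelled MC38. For each of the 9 the highest r was under 0.90 with any single MC38 library (highest 0.897, MC38-OVA), and the lowest with MCA101 was 0.937. The other lines were nearest to their own label's B176 libraries, with medians of 0.945 for B16, 0.9497 for B16OVA and 0.961 for MCA101OVA, each against the OVA-labelled single library of that tumour. Krt8, an epithelial keratin, averaged 541 CPM in the KO, 583 CPM in the Ctrl and 404 CPM in the WT libraries labelled MC38 of run D176, and was at 0.0681 CPM in the MC38 library of run B176. In the MCA101 library of run B176 it was at 311.9 CPM. Epcam, a defining epithelial marker, averaged 0.0341 CPM or less in every group labelled MC38. Which label is right was not tested. Values of the D176 libraries are called "libraries labelled MC38" below and are given apart from the other lines. They enter the tests of the other lines through the shared estimate of spread, and no call of a member between KO and Ctrl changed when the compared groups were fitted alone.

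Of the tumour libraries of the fit, 9 also stood apart by transcript length: the slope of log2 CPM on log2 transcript length was under -0.15 in 4 B16OVA, 2 B16 and 2 MCA101OVA libraries and in Ctrl library 1 labelled MC38. In B16OVA, levels of 5 members were lower there, with the ranges apart for Foxr2, Gm20618 and Gm13230 and overlapping for Gm14139 and Brs3. Foxr2 was at 5.75 to 40.7 CPM in the 4 such B16OVA libraries and at 48.9 to 154 CPM in the 14 others. Gm13230 was at 0.0581 to 3.38 CPM in those 4 and 3.53 to 39.0 CPM in the others, and Gm20618 at 5.87 to 8.29 CPM and 11.998 to 31.8 CPM. Brs3 was at 16.1 to 34.1 CPM (median 18.02) in those 4 and at 26.1 to 41.2 CPM (median 29.4) in the others. Xlr3c did not separate them, with 21.6 to 60.1 CPM (median 37.6) and 28.8 to 58.04 CPM (median 38.5). The KO comparisons were repeated without these libraries, and the result is given below where it matters.

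**Figure D1:**
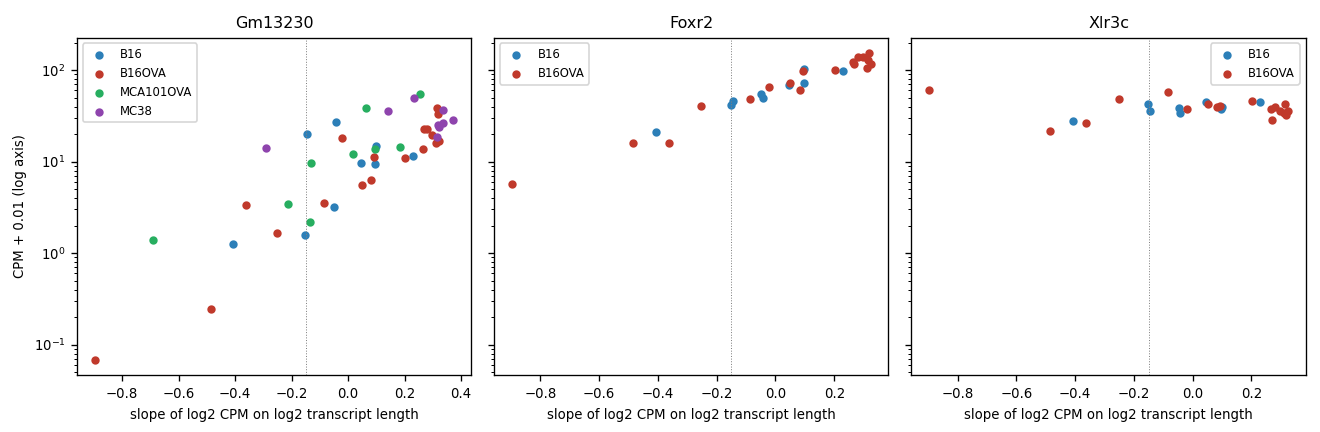
CPM (plus 0.01, log axis) of Gm13230, Foxr2 and Xlr3c in each cultured library against that library's slope of log2 CPM on log2 transcript length, coloured by line, with the limit of -0.15 dotted. In B16OVA, Foxr2 and Gm13230 were lowest in libraries left of the dotted line (down to 5.75 CPM and 0.0581 CPM), while Xlr3c stayed between 21.6 and 60.1 CPM on both sides.

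Foxr2, Xlr3c, Brs3 and Gm20618 were high in B16 and B16OVA cells, in KO and unedited libraries alike. Foxr2 was at 20.8, 46.5 and 103 CPM in the 3 B16 KO libraries, at 41.7, 49.8 and 69.1 CPM in Ctrl and at 54.9, 73.1 and 97.7 CPM in WT. In B16OVA it had a lowest, median and highest level of 40.7, 107 and 154 CPM over 6 KO libraries, against 5.75 to 139 CPM over the 12 unedited ones. The groups overlapped in both lines. In MCA101OVA the 3 KO libraries held 3 Foxr2 counts in all, and the 3 KO libraries labelled MC38 held 0.

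Xlr3c was at 28.1, 35.8 and 39.7 CPM in B16 KO libraries, 33.7, 43.2 and 44.3 CPM in Ctrl and 37.5, 38.4 and 44.3 CPM in WT. B16OVA libraries lay between 28.8 and 48.5 CPM in KO and between 21.6 and 60.1 CPM in unedited cells. Unlike Foxr2 it was detected at a low level elsewhere: 0.682 to 0.990 CPM in MCA101OVA KO and 0.614 to 1.23 CPM in unedited MCA101OVA libraries, with 24 to 29 counts a library in KO. Libraries labelled MC38 had 0.454 to 0.698 CPM in KO and 0.620 to 0.904 CPM in unedited cells.

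Xlr3c is a near-identical copy of Xlr3a and Xlr3b, so the authors' counting could split reads among the 3, and RefSeq lists Xlr3b as a synonym of it. Xlr3c took 46.2% to 53.5% of their summed counts in the B16 and B16OVA groups of the fit, against 0.481% in melanocytes and 0.0567% to 3.05% in the tissues. The summed RNA of the 3 genes was 64.4 to 83.9 CPM in those B16 and B16OVA groups, 1.65 CPM in melanocytes and 1.23 to 10.2 CPM in tissues. Near absence from healthy tissue thus applied to reads assigned to Xlr3c, while Xlr3b averaged up to 7.68 CPM, in ovary. Single B176 libraries of the same lines gave another split, 30.5% in B16-OVA and 25.2% in B16.

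Brs3 was at 18.2, 24.8 and 31.3 CPM in B16 KO libraries, 19.4, 27.6 and 29.4 CPM in Ctrl and 29.9, 35.8 and 38.3 CPM in WT. In B16OVA it was at 26.6 to 34.1 CPM in KO (mean 30.9 ± 2.60, SD, n = 6) and 16.1 to 41.2 CPM in unedited cells (mean 27.6 ± 7.52, SD, n = 12). It had 0 counts in all 9 libraries labelled MC38. Gm20618 was at 7.11, 13.9 and 23.1 CPM in B16 KO, 15.8, 22.1 and 26.0 CPM in Ctrl and 17.6, 24.1 and 29.5 CPM in WT. In B16OVA it spanned 8.29 to 24.1 CPM in KO and 5.87 to 31.8 CPM in unedited cells. Across the MCA101OVA and MC38-labelled libraries of the fit it had 3 counts in 18 libraries. Per kilobase of exon, the mean levels in B16OVA KO cells were 31.2 CPM for Foxr2, 24.3 for Xlr3c, 11.7 for Gm20618 and 11.1 for Brs3.

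4930550L24Rik and Magea8 were confined to MCA101OVA among the lines of the fit. 4930550L24Rik was at 24.7, 32.1 and 19.8 CPM in the 3 MCA101OVA KO libraries, 32.7, 52.4 and 12.1 CPM in Ctrl and 43.04, 37.2 and 16.9 CPM in WT, with the groups overlapping. It had 0 counts in all 18 B16OVA libraries and at most 3 counts in any B16 or MC38-labelled library. Magea8 was at 1.36, 3.67 and 2.87 CPM in MCA101OVA KO libraries (33, 156 and 122 counts), against 5.26, 13.4 and 7.52 CPM in Ctrl (120, 294 and 197 counts) and 5.35, 7.34 and 7.80 CPM in WT. All 3 KO libraries were below all 6 unedited ones, and the share of all genes separated in this way was not computed. Against Ctrl, 0.345% of all tested genes were called, and Magea8 was not (edgeR adjusted p 0.369). Elsewhere in the fit it had 3 counts in 36 libraries.

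Gm20744 was found in MCA101OVA and in the libraries labelled MC38. In MCA101OVA it was at 12.2, 13.6 and 3.15 CPM in KO, 19.8, 28.7 and 3.36 CPM in Ctrl and 18.9, 21.96 and 5.99 CPM in WT, and the third library of each group was the lowest. Libraries labelled MC38 were at 4.50, 4.63 and 4.48 CPM in KO, 4.97, 5.73 and 5.83 CPM in Ctrl and 5.73, 4.93 and 5.55 CPM in WT. The KO libraries were below the others without overlap, and the share of all genes without such overlap was not computed. Between KO and Ctrl, 0.464% of all tested genes were called, and Gm20744 was not (edgeR log2 fold -0.35, SE 0.65). B16 and B16OVA libraries of the fit had 4 Gm20744 counts in 27 libraries.

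Gm14139 and Gm13230 were detected in every library of the 4 lines. Gm14139 was at 21.99, 5.41 and 10.1 CPM in MCA101OVA KO, 2.24, 5.48 and 8.89 CPM in Ctrl and 5.04, 5.57 and 6.83 CPM in WT. B16OVA libraries had 3.77 to 11.2 CPM in KO and 1.44 to 7.01 CPM in unedited cells. Gm13230 was at 54.4, 3.43 and 38.4 CPM in MCA101OVA KO, 9.64, 1.37 and 14.5 CPM in Ctrl and 12.1, 2.19 and 13.6 CPM in WT. The second library of each of these 3 groups was the lowest. The B16 and B16OVA libraries of the same numbered set in run B262 were the lowest of their lines too, at 1.25 to 3.20 CPM and 0.0581 to 1.64 CPM, and 7 of these 9 libraries had a length slope under -0.15. Libraries labelled MC38 had 49.7, 37.0 and 35.9 CPM in KO, 14.1, 26.1 and 18.8 CPM in Ctrl and 28.2, 24.9 and 23.7 CPM in WT. KO was above the others without overlap, and here too the share of all genes without such overlap was not computed. Gm13230 was not called between these KO and Ctrl libraries (edgeR log2 fold 0.99, SE 0.88). The Ctrl library at 14.1 CPM was the one of low length slope. Per kilobase of exon, mean levels in MCA101OVA KO cells were 20.4 CPM for Gm13230, 15.2 for 4930550L24Rik, 7.24 for Gm14139, 3.68 for Gm20744 and 1.60 for Magea8.

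**Figure D2:**
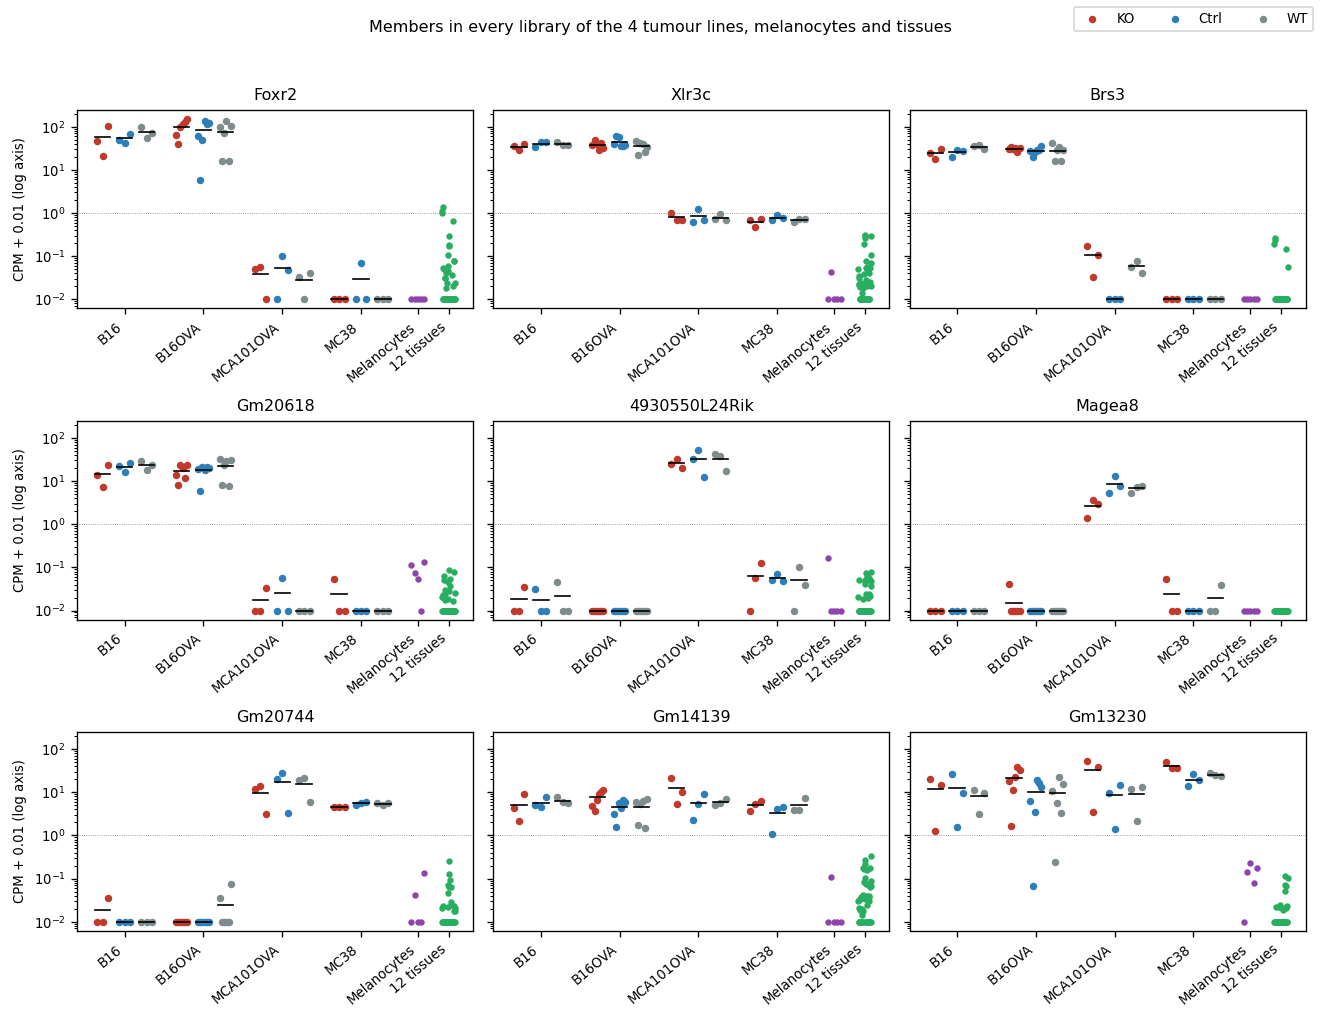
CPM (plus 0.01, log axis) of each of the 9 genes in every library of the 4 edited lines, by KO, Ctrl and WT, with the group mean as a bar, and in the 5 melanocyte and 48 tissue libraries. Foxr2, Xlr3c, Brs3 and Gm20618 are high in B16 and B16OVA (Foxr2 to 154 CPM), 4930550L24Rik and Magea8 in MCA101OVA (to 52.4 and 13.4 CPM), and healthy points pass the dotted line at 1 CPM in 3 libraries for Foxr2.

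In the 53 healthy libraries, 8 of the 9 genes stayed under 1 CPM throughout. Foxr2 was the exception, at 1.10, 1.01, 1.34 and 0.659 CPM in brain (107, 96, 103 and 53 counts), followed by ovary with 0.0685 to 0.276 CPM, and it had 0 counts in all 5 melanocyte libraries. Brs3 was found in brain too, at 0.185, 0.253, 0.222 and 0.137 CPM (18, 24, 17 and 11 counts), and was at 0 in 43 of 48 tissue libraries and all melanocytes. Brain and the next tissue did not overlap for either gene. The share of all genes with such a gap was not computed, and healthy levels entered the choice of genes. In bulk libraries, fewer cells of a type and less RNA per cell cannot be told apart.

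Ovary was the highest tissue for 4 members. Xlr3c was at 0.307, 0.286, 0.258 and 0.288 CPM there and at 0.0979 CPM or less in 43 of the other 44 tissue libraries, with lymph node library 3 at 0.184 CPM. Gm14139 had 0.0934 to 0.329 CPM in ovary and 0.0726 to 0.164 CPM in lymph node, which overlapped. Gm20744 had 0.0137 to 0.241 CPM in ovary and overlapped with the next tissue, lung. Gm20618 averaged 0.0405 CPM in ovary and 0.0666 CPM in melanocyte cultures, its highest healthy group. Germ-cell marker RNA summed over Ddx4, Dazl, Sycp3 and Stra8 was highest in ovary (10.9 to 12.6 CPM, 3 of 4 markers reaching 1 CPM and Stra8 at 0), and its part in these values was not tested.

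Magea8 had 0 counts in all 53 healthy libraries. At 3 counts, the limit was 0.0236 CPM over the 5 melanocyte libraries and 0.00529 to 0.0112 CPM over the 4 libraries of each tissue, for counting error only. Gm13230 was highest in the melanocyte cultures, at 0 to 0.216 CPM and 5 counts at most, and next in thymus at 0.0410 to 0.102 CPM. 4930550L24Rik averaged 0.0374 CPM in its highest tissue, skin. Melanocytes, the normal counterpart of B16, held 1 Xlr3c count and 8 Gm20618 counts in 5 libraries, with no Foxr2 or Brs3 count.

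**Figure D3:**
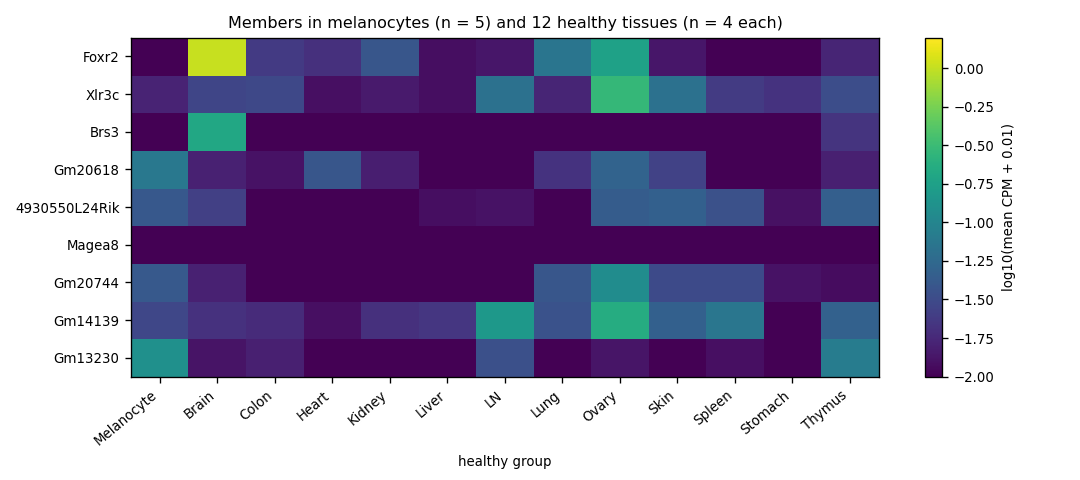
Mean level (log10 of mean CPM plus 0.01, by colour) of the 9 genes in melanocytes (n = 5) and the 12 tissues (n = 4 each). Brain stands out for Foxr2 (mean 1.03 CPM) and Brs3 (0.199 CPM), ovary for Xlr3c (0.285 CPM) and Gm14139 (0.220 CPM), and the Magea8 row is at 0 throughout.

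The comparison of KO with Ctrl cells asked whether loss of Setdb1 changed these genes. Ctrl levels were among those the choice of genes used, and genes found only in KO cells could not enter it. None of the 9 was called in any line by edgeR's quasi-likelihood test with Benjamini-Hochberg adjustment over 16809 genes at 0.05. That fit held run but did not pair libraries numbered together as a set. With the sets as a block, Gm13230 was called in B16OVA (below). Over all tested genes, the share called was 0.69% for B16, 1.05% for B16OVA, 0.345% for MCA101OVA and 0.464% for libraries labelled MC38. At an unadjusted p under 0.05 there were 0, 0, 2 and 0 members in that order of lines, and DESeq2 called 0 in each line (0, 2, 2 and 0 unadjusted). In B16, 6 members averaged 0.5 CPM or more in KO or Ctrl, and their median log2 fold was -0.08, beside 0.00 over all tested genes. The medians were 0.19 in B16OVA (6 members), -0.43 in MCA101OVA (6) and 0.11 for libraries labelled MC38 (4), beside -0.01, 0.01 and -0.01 for all genes. Between Ctrl and WT, 0 of 9 members were called in each line, and so were 0% of all genes, with 1 member (Brs3 in MCA101OVA) at an unadjusted p under 0.05 and no call by DESeq2.

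Magea8 in MCA101OVA had the lowest KO value relative to Ctrl, with a log2 fold of -1.94 (SE 0.55, 95% interval -3.09 to -0.78) and an adjusted p of 0.369 by edgeR. KO was below Ctrl in 3 of 3 sets of libraries numbered together. Within runs the difference of mean log2(CPM + 0.1) was -1.87 in B253 (1 library each) and -1.60 in B262 (2 each). Brs3 in MCA101OVA had 4, 1 and 4 counts in KO and 0, 0 and 0 in Ctrl, with 5 counts over 3 WT libraries, too few to set a size.

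Gm13230 had log2 folds of 1.66 in MCA101OVA (SE 0.90, edgeR adjusted p 0.878), 1.21 in B16OVA (SE 0.64, adjusted p 0.706), 0.99 for libraries labelled MC38 (SE 0.88, adjusted p 1) and 0.11 in B16 (SE 0.88, adjusted p 1). KO was above Ctrl in 3 of 3 library sets in both MCA101OVA and B16OVA, and in 1 of 3 in B16. Some fits called it: in B16OVA the log2 fold was 1.26 with the replicate block of library sets (adjusted p 0.0300) and 1.24 without the low-count filter (adjusted p 0.00942), and in MCA101OVA it was 1.69 without that filter (adjusted p 0.0294). Leaving out the libraries of low length slope gave 1.13 in B16OVA and 1.80 in MCA101OVA, with edgeR adjusted p of 0.0962 and 0.158. In MCA101OVA the log2 fold was 0.79 without KO library 3 and 2.87 without Ctrl library 3. The call on Gm13230 thus rests on the fit.

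The intervals left room for changes in the other genes. In B16OVA KO against Ctrl the 95% interval of the log2 fold was -0.41 to 0.43 for Brs3, -0.79 to 0.02 for Xlr3c, -0.84 to 0.54 for Gm20618, -0.52 to 1.26 for Foxr2 and -0.15 to 1.37 for Gm14139. In MCA101OVA it was -1.76 to 0.59 for 4930550L24Rik, -2.45 to 0.24 for Gm20744 and -0.07 to 2.12 for Gm14139. Tests of whether the KO effect differed from that in B16OVA called 0 of 9 members for each other line by edgeR, with backgrounds of 0% for B16, 0.101% for MCA101OVA and 0.262% for libraries labelled MC38. At an unadjusted p under 0.05 there was 1 member for MCA101OVA (Brs3, at the low counts above) and 0 for the others, and DESeq2 called 0. For some members no difference could be measured, since KO and Ctrl of 1 line were both at or under 3 counts. In B16OVA these were 4930550L24Rik, Gm20744 and Magea8. Gm20618 and Foxr2 were at that floor in MCA101OVA and in the libraries labelled MC38, and Brs3 in the latter.

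**Figure D4:**
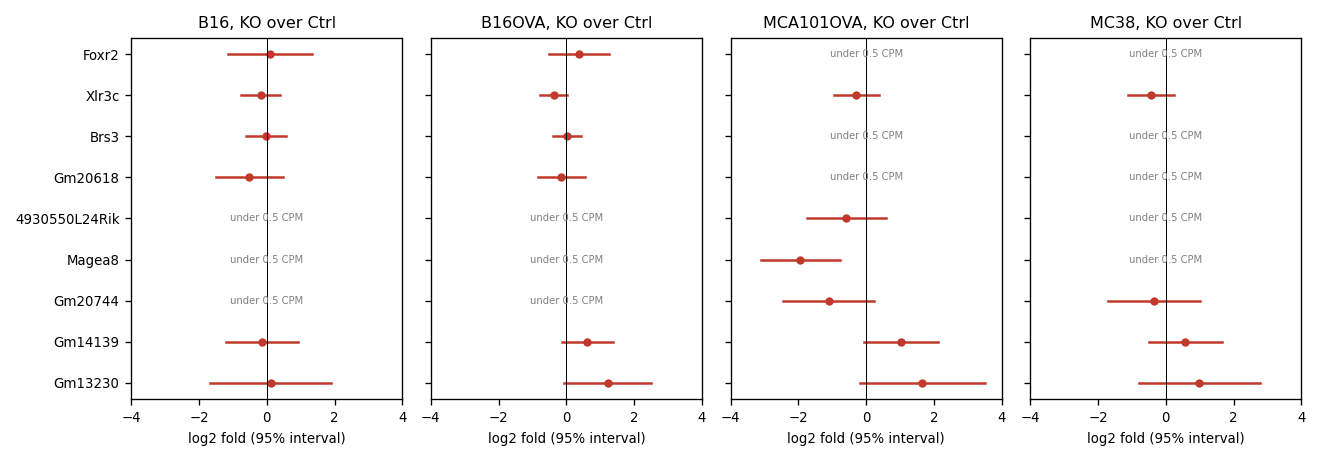
Log2 fold of KO over Ctrl for each gene and line from edgeR's fit, with 95% intervals, and "under 0.5 CPM" where both groups averaged less than that. Among members at 0.5 CPM or more, the interval lies wholly on 1 side of 0 for Magea8 in MCA101OVA (-3.09 to -0.78), and no point passed the adjusted threshold.

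Levels in KO cells of different lines were compared by counts summed over each group and scaled by its summed depth. These are the lines in which the genes were chosen, and several members pass the low-count filter only through the line where they are high, so the ratios are a description and calls of MCA101OVA or MC38 KO against B16OVA KO are not counted. Their intervals are 95% Poisson intervals on the sums, which cover counting error only and leave out the spread between libraries. MCA101OVA KO against B16OVA KO gave Xlr3c 51.3-fold lower (41.3 to 64.6), and edgeR's 95% interval for its log2 fold, which includes that spread, was -6.38 to -4.98. Brs3 was 374-fold lower (197 to 818). Foxr2 had 3 counts in MCA101OVA KO and 19169 in B16OVA KO, 3693-fold lower (1264 to 17910). Gm20618 had 1 count against 3221.

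4930550L24Rik had 2808 counts in MCA101OVA KO against 0 in B16OVA KO and was at least 1619-fold higher, at a floor of 3 counts over the group. Gm20744, with 1009 counts against 0, was at least 582-fold higher. Magea8 had 33, 156 and 122 counts in the 3 libraries against 1 in all of B16OVA KO, a ratio of 538 (95.9 to 21320). Gm14139 and Gm13230 were detected in KO cells of every line. By summed counts, MCA101OVA KO over B16OVA KO was 1.42 (1.31 to 1.53) for Gm14139 and 1.32 (1.26 to 1.38) for Gm13230. The folds of edgeR's fit, which holds run, were larger. Gm14139 had a log2 fold of 1.18 (SE 0.48, edgeR adjusted p 0.0443, not counted as a call). Its adjusted p ran from 0.00201 to 0.553 over 17 alternatives, and its log2 fold was 0.46 without MCA101OVA KO library 1. Gm13230 had a log2 fold of 1.82 (SE 0.78, edgeR adjusted p 0.0556), and its adjusted p ran from 1.1e-05 to 0.579 over the alternatives. With the replicate block its log2 fold was 1.74 (edgeR adjusted p 0.000242, also not counted as a call).

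KO libraries labelled MC38 against B16OVA KO gave Xlr3c 64.4-fold lower (46.6 to 91.5), Brs3 at least 635-fold lower with 0 counts against 5820, and Foxr2 at least 2090-fold lower with 0 counts against 19169. Gm20618 had 1 count against 3221. Gm20744 was at least 286-fold higher, with 281 counts against 0. Gm14139 had a log2 fold of -0.87 (edgeR adjusted p 0.161) and Gm13230 of 0.26 (edgeR adjusted p 0.832). Their ratios by summed counts were 0.637 (0.561 to 0.721) and 1.92 (1.83 to 2.02). Both 4930550L24Rik and Magea8 were at or under 3 counts in both groups. B16 KO against B16OVA KO called 0 of 9 members (background 0.0297%), 3 of them at or under 3 counts in both groups, with 0 members at an unadjusted p under 0.05 and 0 called by DESeq2. These comparisons share the B16OVA KO libraries.

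The single B176 libraries set lines named with OVA or GFP beside the line without, with no replicate, so the intervals cover counting error only and no test was made. MCA101-OVA and MCA101 differed by more than 10-fold in 4 members. The share of all genes that differed so was not computed, and the members were chosen on levels in unedited tumour libraries. 4930550L24Rik was at 7.999 CPM in MCA101-OVA and 0.120 CPM (7 counts) in MCA101, a ratio of 66.5 (31.9 to 167). Magea8 was at 5.82 CPM in MCA101-OVA and 0.103 CPM in MCA101 (ratio 56.4, 25.5 to 155), Gm14139 at 21.98 and 1.13 CPM (ratio 19.4, 15.1 to 25.3) and Gm20744 at 30.5 and 1.74 CPM (ratio 17.6, 14.3 to 21.7). Gm13230 was at 47.5 CPM in MCA101-OVA and 37.7 CPM in MCA101 (ratio 1.26, 1.18 to 1.34), and Xlr3c at 0.850 and 0.241 CPM (ratio 3.53, 1.83 to 7.17). Magea8 and 4930550L24Rik were thus above 1 CPM in all MCA101 libraries with OVA in their name and not in the one without.

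Xlr3c was at 9.28 CPM in MC38-OVA (372 counts) and 6.52 CPM in MC38-GFP, against 1.54 CPM in MC38 (68 counts). The ratios to MC38 were 6.01 (4.63 to 7.91) and 4.22 (3.25 to 5.56). Xlr3c took 85.3% and 86.2% of the Xlr3a, Xlr3b and Xlr3c counts in MC38-OVA and MC38-GFP and 53.5% in MC38. Gm14139 was at 14.2 CPM in MC38-OVA, 23.2 CPM in MC38-GFP and 22.9 CPM in MC38, and Gm13230 at 28.8, 35.6 and 48.2 CPM. Gm20744 had 13 counts in MC38-OVA (0.324 CPM) and 0 in both MC38-GFP and MC38, which allow up to 0.0570 and 0.0681 CPM. The libraries labelled MC38 of run D176 were above that limit in all 9 cases, at 4.48 CPM or more.

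Between B16-OVA and B16, the 6 members above 1 CPM were lower in B16-OVA: Foxr2 at 157 and 190 CPM (ratio 0.829), Xlr3c at 43.3 and 52.9 CPM, Brs3 at 48.4 and 55.5 CPM, Gm20618 at 19.3 and 25.2 CPM, Gm14139 at 6.11 and 10.6 CPM, and Gm13230 at 17.5 and 32.9 CPM (ratio 0.533). Among KO libraries, no member was called between B16 and B16OVA.

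**Figure D5:**
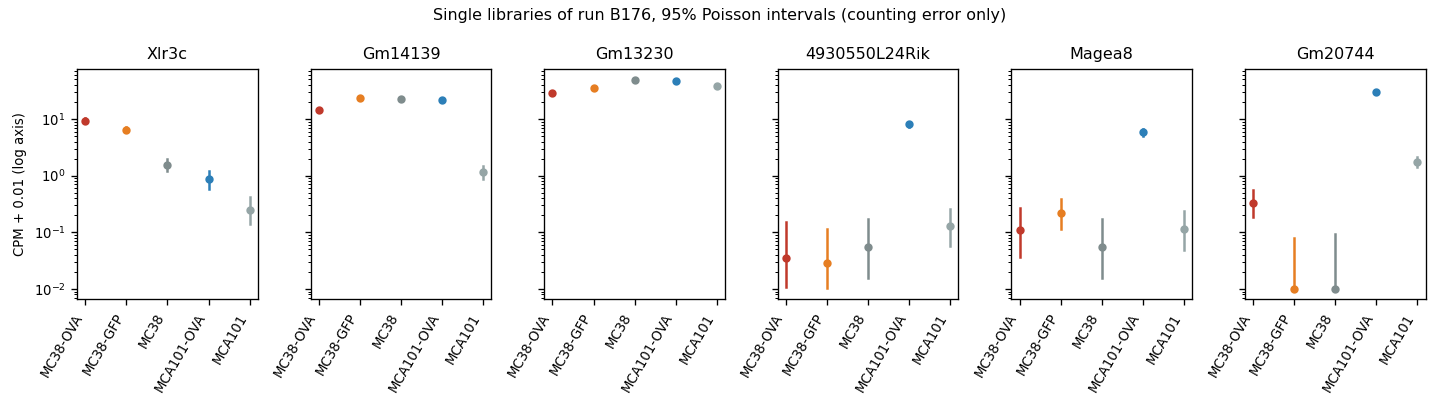
CPM (plus 0.01, log axis) of 6 members in the 5 single B176 libraries of MC38 and MCA101 lines, OVA and GFP lines left of the line without, with 95% Poisson intervals for counting error only. MCA101-OVA stands above MCA101 for 4930550L24Rik (7.999 and 0.120 CPM) and Magea8 (5.82 and 0.103 CPM), and MC38-OVA above MC38 for Xlr3c (9.28 and 1.54 CPM).

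Across the means of all 32 groups (log2(mean CPM + 0.1), Pearson r as a description of groups that share lines and runs), likeness was as follows. Brs3, Foxr2 and Gm20618 had r of 0.981 to 0.994 with each other, and Xlr3c 0.849 to 0.881 with them, 0.776 with Gm14139 and 0.721 with Gm13230. 4930550L24Rik and Magea8 had r = 0.972, and Gm20744 0.801 and 0.780 with these. Gm14139 and Gm13230 had r = 0.960. The genes most alike outside the list, among those with a mean of 1 CPM or more in some group, were Ly6g5c for Brs3 (0.991), Gm20618 (0.989) and Foxr2 (0.983), Luzp4 on the X chromosome for Xlr3c (0.961), and Gm378, also on the X chromosome, for 4930550L24Rik (0.994). They were 4930477N07Rik for Magea8 (0.983), Gm42609 for Gm20744 (0.988), Platr16 for Gm14139 (0.957) and for Gm13230 (0.997). Ly6g5c, Luzp4 and, for Gm14139, Platr16 were not among the 3 most alike genes at a pseudocount of 1. Platr16 and Gm13230 share exon bases.

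Relatives of the members were counted from lists by family. Of 12 Xlr-family genes listed beside Xlr3c, 3 were tested (Xlr, Xlr3a and Xlr3b) and 0 were called between KO and Ctrl in any line. Xlr itself showed the opposite line pattern to Xlr3c, with 39.2 CPM in MCA101OVA KO and 53.1 CPM in Ctrl, 42.4 and 41.9 CPM in KO and Ctrl labelled MC38, and 0.0163 CPM and 0.0154 CPM in B16OVA KO and Ctrl. Xlr4a, Xlr4b and Xlr4c were highest in thymus (38.4, 30.7 and 16.4 CPM) and Xlr5c in lymph node (3.07 CPM). Of 23 Mage genes listed, 22 were in the table, 6 were tested and 0 were called. Maged1, a widely used Mage gene that promotes apoptosis through the p75 receptor, had 441 CPM in B16OVA KO and 386 CPM in Ctrl, and Magea2, next to Magea8, averaged 0.00784 CPM in MCA101OVA KO and 0.0173 CPM in unedited MCA101OVA libraries.

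Of the bombesin receptors and ligands, the ligand gene Nmb alone of 4 was tested and it was not called. Foxr1, the paralog of Foxr2, was not tested and peaked in lymph node at 1.34 CPM. Of 9 X-linked germline genes, 2 were tested and 1 was called: Rhox5, an X-linked homeobox gene of the reproductive tract, was higher in B16 KO at 14.6 CPM than in Ctrl at 0.976 CPM (log2 fold 3.96, SE 0.57, edgeR adjusted p 2.04e-05). It was not called in the other lines (edgeR adjusted p 0.0578 to 0.878), where its log2 folds of KO over Ctrl were 1.20 in B16OVA, 0.73 in MCA101OVA and 2.07 in the libraries labelled MC38 (22.7 CPM in KO and 4.99 CPM in Ctrl). Neighbours were mixed. In KO cells, Rragb and Sem1 were higher in B16OVA than in MCA101OVA, as were Foxr2 and Gm20618 beside them. Htatsf1, beside Brs3, was not. Rragb, 7120 bases from Foxr2, averaged 2.29 CPM in B16OVA KO and 2.11 CPM in unedited B16OVA. It had 0 in MCA101OVA KO and was at 69.4 CPM in brain. Htatsf1, 4825 bases from Brs3, was at 28.1 to 69.0 CPM in the KO groups of all 4 lines. Sem1, the proteasome subunit gene next to Gm20618, was at 297 CPM in B16OVA KO and 295 CPM in unedited B16OVA, against 50.1 and 53.4 CPM in MCA101OVA.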

How the data were processed

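RNA was prepared with an Illumina TruSeq Stranded mRNA kit, per the labels' protocols. The authors deposited whole-number counts of reads per gene for all libraries, made with Trim Galore, FastQC, STAR and HTSeq on mm10, per the submitters' processing notes. The sources used here do not give versions, the strand setting of the counting or the handling of reads that map to several places. The second deposited table, of library-size-normalized values, was not used.

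The 9 members and all gene lists were chosen with earlier results of these data known. Of 53379 gene IDs, 53274 matched GENCODE vM21, which gave positions and lengths. CPM is the count divided by the library's total over genes. Tests used edgeR 4.0.16 in R 4.3.3 (limma 3.58.1 loaded with it) on 45 libraries of the 4 edited lines: TMM scaling, filterByExpr by group (16809 genes), quasi-likelihood fit with group and run, 31 residual degrees of freedom, biological coefficient of variation 0.401, Benjamini-Hochberg adjustment over all tested genes, calls at 0.05. The fit was tested on simulated data. DESeq2 1.42.0 was an alternative. Folds are given as fitted, or as count ratios with 95% exact Poisson intervals, or as bounds at 3 counts; count ratios, their intervals and bounds cover counting error only, also over group sums. Melanocytes, tissues and single libraries entered no test.

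Group and run come from the titles. The labels give no replicate numbers, but library numbers form sets in B16, B16OVA and MCA101OVA. KO and Ctrl libraries of a set deviated together in 3 of 3 pairs in each line (lowest correlations 0.512, 0.433 and 0.290). The main fit held run only and did not pair libraries by set. Sets entered as a replicate block in an alternative fit, and as pairs in the counts of sets with KO above or below Ctrl. Of 154 pairs of libraries of 1 group, 0 were identical. Beside the members, genes were named by rule: listed relatives with 1 CPM in some group, nearest neighbours, and the 3 genes most alike in pattern to each member, of which examples are given. Alternatives were RLE scaling, other low-count filters, no run term, the pair block, WT for Ctrl, the compared groups alone, leaving out libraries, and DESeq2.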

Additional observations from a re-analysis of the deposited data

Results flagged for a closer look

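For members, 30 groups with 4 to 10 libraries and at least 10 counts in 1 library were checked for a library far from the rest, and 4 were found, where chance gives about 1 in 20. Xlr3c in lymph node library 3 was at 0.184 CPM (15 counts), with the next library at 0.0290 CPM. Gm20618 in B16OVA Ctrl library 2 was at 5.87 CPM (101 counts) with the next at 17.8 CPM, and that library also had the lowest length slope of all (-0.896). Gm14139 in lymph node library 2 was at 0.0726 CPM (5 counts), with the next at 0.1597 CPM. Gm14139 in thymus library 4 was at 0.0766 CPM (10 counts), with the next at 0.0300 CPM. Of the 4, 3 are levels under 0.2 CPM in healthy tissue.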

How the results depend on the processing

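The count of members called in KO against Ctrl was 0 in each line and became 1 (Gm13230) in B16OVA without the low-count filter and with the replicate block by library set, and 1 in MCA101OVA without the low-count filter. Pooled over all comparisons and the healthy levels, 255 alternative results kept the count within 1.5 times. Those between lines and between Ctrl and WT are among these 255. Healthy levels entered the choice of genes, and 0% of all genes were called between Ctrl and WT. Calls of MCA101OVA or MC38 KO against B16OVA KO are not counted above. The 255 are therefore a tally and no measure of how stable the results are. The block changed no other call between KO and Ctrl. The 27 genes most alike in pattern shared 14 with those chosen at a pseudocount of 1. Gm13230 in B16 KO against Ctrl had a log2 fold of -0.094 with no run term, -0.040 with the replicate block and -0.013 without the libraries of low length slope, and ranged from -0.74 to 0.59 when single libraries were left out. In B16 KO against B16OVA KO it was -0.72 with no run term and ranged from -0.46 to 0.90 when single libraries were left out. The cause was not tested. TMM-scaled levels over all libraries kept 8 members under 1 CPM in every healthy library. Levels under 3 counts limit the healthy tissues and the silent lines.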
